A study of Homo sapiens with 11 samples.

Results

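The genes described here are 37 genes of homologous recombination and of the Fanconi anaemia pathway, taken from a table of 57736 gene IDs by matching each Ensembl ID to a fixed list of symbols, MRE11 being also listed as MRE11A. All 37 were found and all 37 passed the filter on low counts that left 13980 genes for testing. They fall into 9 roles: the Fanconi core complex with its ubiquitin-conjugating enzyme (FANCA, FANCB, FANCC, FANCE, FANCF, FANCG, FANCL, FANCM and UBE2T), its substrate pair (FANCD2 and FANCI), end resection (MRE11, RAD50, NBN, RBBP8 and EXO1), the BRCA1-PALB2-BRCA2 axis (BRCA1, BARD1, PALB2, BRCA2 and BRIP1), the filament mediators (RAD51C, RAD51D, XRCC2 and XRCC3), strand exchange cofactors (RAD51AP1, RAD54L and RAD54B), junction dissolution (BLM, TOP3A, RMI1 and RMI2), junction and crosslink nucleases (SLX4, MUS81 and EME1), and polymerase theta with the helicase HELQ (POLQ and HELQ).

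RNA was sequenced from HEC50B, a human endometrial cancer cell line whose parental form carries the R183W change in PPP2R1A, which encodes the scaffold on which the phosphatase PP2A assembles. Its isogenic comparator carries wild-type (WT) PPP2R1A after CRISPR editing, and each line was cultured for 4 days with 50 µM WM1119, which inhibits the histone acetyltransferase KAT6A, or with vehicle. The 11 libraries comprised 2 of R183W cells with WM1119, 3 of R183W cells with vehicle, 3 of WT cells with WM1119 and 3 of WT cells with vehicle. The labels do not say how many clones the WT line stands for, so R183W and any other difference between the lines cannot be told apart, and they do not say that replicates were separate cultures, so p-values reflect the scatter among these libraries alone, and that scatter may be technical.

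Homologous recombination copies the sister chromatid to repair a broken chromosome: the break is resected, a protein filament on the single strand finds and invades the intact copy, and the joined molecules are then dissolved or cut. The Fanconi pathway handles crosslinks between DNA strands, where the core complex ubiquitinates FANCD2 and FANCI and nucleases unhook the crosslink before recombination finishes the repair. Many of these genes are transcribed mainly in S phase and are known targets of E2F factors, and faults in them sensitise endometrial and other carcinomas to crosslinking agents and PARP inhibitors.

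Because E2F factors act at promoters, the region from 250 bases before to 50 bases after each RefSeq gene start (GRCh38.p14) was searched for the core E2F letters TTCCCGC or TTGGCGC on both strands. The promoter table held 42 such windows for 33 of the 37 genes. Below, 280 bases are printed for 3 genes that passed the test in more than 1 comparison and have these letters. They are also printed for RAD50, which lacks the letters. RAD50 passed the test only with WM1119 in WT cells, where it fell and FANCD2 and BARD1 rose. FANCD2 lies at chr3:10026187-10026466 on the plus strand and XRCC2 at chr7:152676112-152676391 on the minus strand. BARD1 lies at chr2:214809654-214809933 on the minus strand and RAD50 at chr5:132556727-132557006 on the plus strand. Each runs 5′ to 3′ on the strand of its gene, and the capitals mark the E2F letters, here the reverse complement of TTCCCGC.
FANCD2: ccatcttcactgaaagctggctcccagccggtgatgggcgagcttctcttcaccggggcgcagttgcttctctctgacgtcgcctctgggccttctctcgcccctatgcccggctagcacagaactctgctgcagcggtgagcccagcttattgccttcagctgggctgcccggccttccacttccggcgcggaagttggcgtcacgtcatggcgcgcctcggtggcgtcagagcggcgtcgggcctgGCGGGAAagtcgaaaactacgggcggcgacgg
XRCC2: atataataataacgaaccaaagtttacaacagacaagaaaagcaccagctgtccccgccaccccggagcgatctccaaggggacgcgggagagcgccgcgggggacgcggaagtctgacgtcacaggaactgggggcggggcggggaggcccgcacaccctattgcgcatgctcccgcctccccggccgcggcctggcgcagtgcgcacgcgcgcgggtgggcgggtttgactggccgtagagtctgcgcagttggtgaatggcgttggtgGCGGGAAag
BARD1: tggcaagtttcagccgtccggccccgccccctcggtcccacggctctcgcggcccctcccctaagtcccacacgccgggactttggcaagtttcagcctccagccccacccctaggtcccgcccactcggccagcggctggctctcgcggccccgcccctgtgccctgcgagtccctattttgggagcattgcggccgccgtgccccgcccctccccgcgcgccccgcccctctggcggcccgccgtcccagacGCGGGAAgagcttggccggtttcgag
RAD50: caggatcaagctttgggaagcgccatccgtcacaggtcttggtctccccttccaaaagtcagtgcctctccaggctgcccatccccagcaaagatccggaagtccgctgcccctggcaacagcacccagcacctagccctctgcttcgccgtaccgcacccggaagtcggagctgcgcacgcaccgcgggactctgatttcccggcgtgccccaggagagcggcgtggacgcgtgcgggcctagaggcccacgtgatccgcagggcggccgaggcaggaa
Counted from 1 at the gene start, with the base before it at -1, the capitals begin at -2 in FANCD2, at 22 in XRCC2 and at 5 in BARD1. EXO1, which also passed the test in more than 1 comparison and fell with WM1119 in R183W cells, lacks the letters and is not printed. BRCA2, higher in R183W than in WT cells under vehicle, lacks them too. The E2F letters stood in 22 of the 42 windows (52.4%), against 13.6% of 14864 windows of all genes tested and 9.23% of all 35116 windows. Counted by gene, 19 of 33 (57.6%) had them in a window, against 18.1% of 10122 genes tested. Other promoter elements of cell cycle genes were searched in the same way. The CHR letters TTTGAA stood in 14.3% of the repair genes' windows, against 10.3% of windows of all genes tested and 15.2% of all windows. The CCAAT box letters CCAAT stood in 40.5%, against 34.9% and 34.6%. Counted by gene, the shares were 15.2% against 13.5% of genes tested for CHR and 45.5% against 43.6% for CCAAT. A match describes the letters in the window and is not evidence of binding.

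Libraries held 2609922 to 6065149 counts, the lowest in WT WM1119 library 3, and the 37 genes took 4199 to 10240 of them. Levels are CPM, that is, counts scaled to 1 library size with TMM factors, and 3 counts, the floor used here, correspond to 0.495 to 1.24 CPM. WT WM1119 library 3 stood apart: its log CPM correlated with the other libraries of its group at 0.917 and 0.937 across genes, against 0.957 to 0.975 for every other pair of replicates. Calls that change without it are given beside the results. By GENCODE release 29, 13 of the 37 genes share exon positions with another protein-coding gene and 19 with another gene of any type. A pseudogene of their name exists for 4, so the counts of all these genes may be shared. Epithelial and Müllerian markers EPCAM, KRT8, KRT18 and PAX8 were present in all groups, as were VIM and COL1A1, while KRT19, CDH1, ESR1, SOX17, PGR and the leukocyte gene PTPRC were at or near 0. PPP2R1A averaged 30 ± 4.41 CPM in R183W WM1119, 34.3 ± 2.86 in R183W vehicle, 27.8 ± 3.36 in WT WM1119 and 23.2 ± 2.69 in WT vehicle libraries. KAT6A averaged 179 ± 7.0 CPM in R183W WM1119, 170.4 ± 26.3 in R183W vehicle, 223 ± 53.9 in WT WM1119 and 149 ± 28.8 in WT vehicle libraries (SD, n = 2, 3, 3 and 3), and counts per gene check neither the substitution nor inhibition of the enzyme. In bulk RNA, fewer cells expressing a gene and less RNA per cell cannot be told apart, which bears on every result below.

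**Figure D1:**
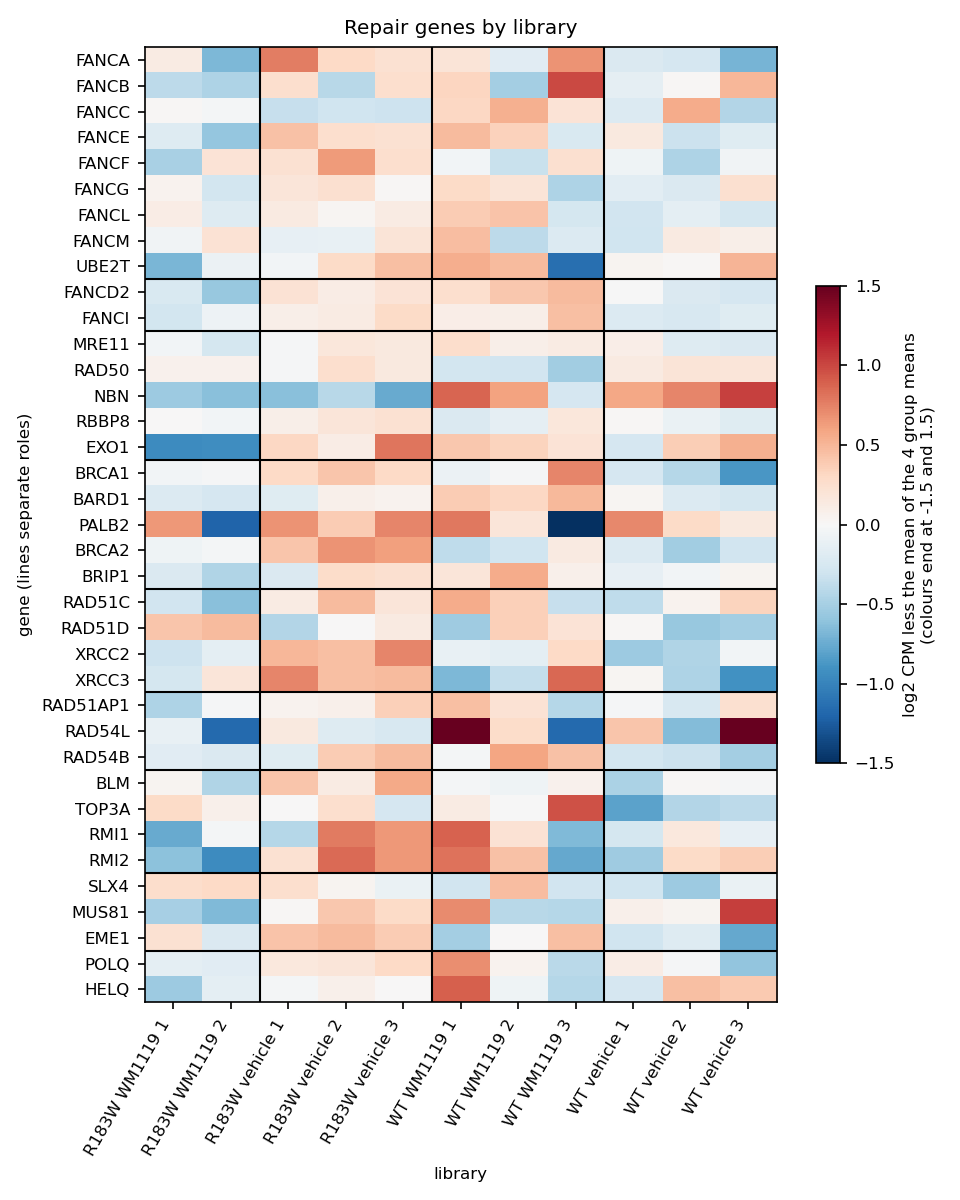
Log2 CPM of the 37 repair genes, less the mean of the 4 group means, in each of the 11 libraries (columns) by gene (rows, with lines between roles); colours end at -1.5 and 1.5. Most genes are lower in the R183W WM1119 and WT vehicle columns and higher in the R183W vehicle and WT WM1119 columns.

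With WM1119, most repair genes were lower in R183W cells and higher in WT cells. In R183W cells, WM1119 against vehicle gave a log2 change below 0 for 31 of the 37 genes (83.8%), against 50.1% of all 13980 genes, with a median of -0.45 against 0.00 over all genes. In WT cells, 32 of 37 were above 0 (86.5%) and 5 were below 0, where 50.4% of all genes were below 0; the median was 0.26 against 0.00. These contrasts share no library, and 27 of the 37 genes (73%) were below 0 in R183W cells and above 0 in WT cells, against 17.1% of all genes tested.

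Few single genes passed the test. Genes counted as called had an adjusted p under 0.05 (edgeR quasi-likelihood F test, two-sided, Benjamini-Hochberg over 13980 genes). With WM1119 in R183W cells, 2 of the 37 genes fell, EXO1 and XRCC2, where 2.65% of all genes did, and 0 rose, where 1.99% of all genes did. At an unadjusted p under 0.05, 8 of 37 were lower (21.6%, against 9.98% of all genes) and 0 were higher (against 9.61%), and DESeq2 called 0 higher. In WT cells, WM1119 raised 2 of the 37, FANCD2 and BARD1 (2.33% of all genes rose), and RAD50 fell (2.53% of all genes fell), where 4.86% of all genes were called in either direction. At an unadjusted p under 0.05, 8 of 37 were higher in WT cells (21.6%, against 11.4% of all genes) and 1 was lower (2.7%, against 9.94%). The 2 R183W WM1119 libraries both lay under all 3 R183W vehicle libraries for 22 of the 37 genes (59.5%, against 23.6% of all genes tested). In WT cells, the 3 WM1119 libraries all lay above the 3 vehicle libraries for 8 of 37 (21.6%, against 10.7%). The share of all genes called in either direction, 4.64% in R183W cells, also varied between omissions, not always in the direction of the counts of repair genes. Omitting library 1 of WT vehicle gave 3 repair genes that fell in R183W cells (4.59% of all genes called). The same omission gave 3 that rose in WT cells (4.32%, against 4.86%). Leaving out WT WM1119 library 3 raised the count that fell in R183W cells to 6, with FANCD2, BRCA2, RAD51C and RMI2 joining, and the share of all genes called to 11.5%. Omitting library 1 or 2 of R183W WM1119 (0.883% and 0.803% of all genes called) or library 3 of R183W vehicle (1.98%) left 0 such genes. Omitting library 1 (3.02%) or 2 (1.9%) of R183W vehicle, library 2 of WT vehicle (3.59%) or library 2 of WT WM1119 (3.93%) left 1, and omitting library 1 of WT WM1119 (5.91%) gave 5. For genes that rose in WT cells, omitting library 2 (3.32% of all genes called) or 3 (3.28%) of R183W vehicle, library 2 (1.87%) or 3 (1.78%) of WT vehicle or library 2 of WT WM1119 (1.96%) left 0. Omitting library 1 (3.25%) or 2 (3.23%) of R183W WM1119 left 1, and omitting library 1 of WT WM1119 (10%) gave 5. RAD50 no longer passed when library 2 or 3 of WT vehicle or library 2 of WT WM1119 was omitted.

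**Figure D2:**
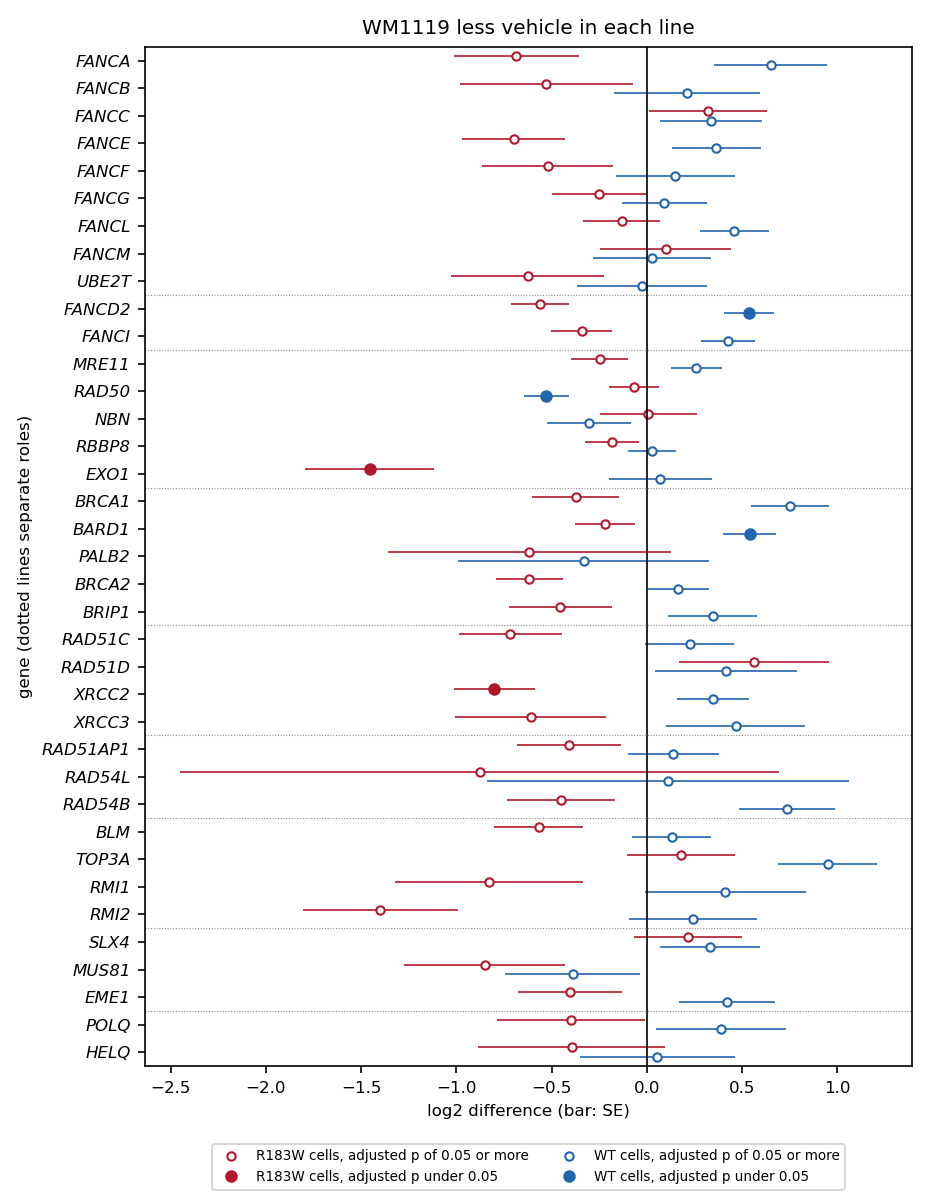
Log2 difference of WM1119 less vehicle (x axis) for each repair gene (y axis) in R183W cells and in WT cells; points are estimates, bars are SE and filled points have an adjusted p under 0.05. The filled points are EXO1 and XRCC2 in R183W cells, left of 0, and FANCD2 and BARD1, right of 0, and RAD50, left of 0, in WT cells.

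The difference between these inhibitor effects was tested directly as an interaction, the R183W effect minus the WT effect. It was below 0 for 33 of the 37 genes (89.2%, against 50.8% of all genes), with a median of -0.76 against -0.01 over all genes. At an unadjusted p under 0.05, 17 of 37 were below 0 (45.9%, against 5.2% of all genes) and 1, RAD50, was above 0 (2.7%, against 4.1%). After adjustment the interaction was called for FANCD2 only, where 0.193% of all genes were called below 0 and 0.093% above.

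Between the lines, the sign depended on the treatment. Under WM1119, R183W against WT was below 0 for 30 of 37 genes (81.1%, against 51.9% of all genes), with a median of -0.39 against -0.02. Lower in R183W cells were 4 genes, FANCD2, NBN, EXO1 and BARD1 (3.92% of all genes were called lower), and 0 were called higher (4.64% of all genes were, and 8.56% in either direction), with 1 higher at an unadjusted p under 0.05 and 1 called higher by DESeq2. Omitting library 3 of WT WM1119 gave 8 genes called lower, with FANCE, UBE2T, RAD51C and RMI2 joining, and 20.8% of all genes called in either direction. Omitting library 1 (6.33%) or 2 (5.38%) of that group gave 2, omitting library 1 of R183W WM1119 (2.62%) gave 1 and omitting its library 2 (2.68%) gave 0. Under vehicle, 29 of 37 genes were above 0 (78.4%), where 50.6% of all genes were below 0, and the median was 0.28 against -0.01. Here 4 genes were higher in R183W cells, BRCA1, BRCA2, XRCC2 and EME1 (6.82% of all genes were called higher), and NBN was lower (6.17% of all genes were). All 3 R183W vehicle libraries lay above the 3 WT vehicle libraries for 16 of 37 genes (43.2%, against 19.3% of all genes). Omitting WT WM1119 library 3, which enters only the filter, the scaling and the shared estimate of spread, gave 9 genes called higher, with FANCA, FANCD2, FANCI, XRCC3 and TOP3A joining, and 22.7% of all genes called against 13%. Omitting library 2 of R183W vehicle (7.45%) or library 3 of WT vehicle (7.23%) gave 2. The inhibitor and line contrasts share libraries in pairs, so they are not independent of one another.

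**Figure D3:**
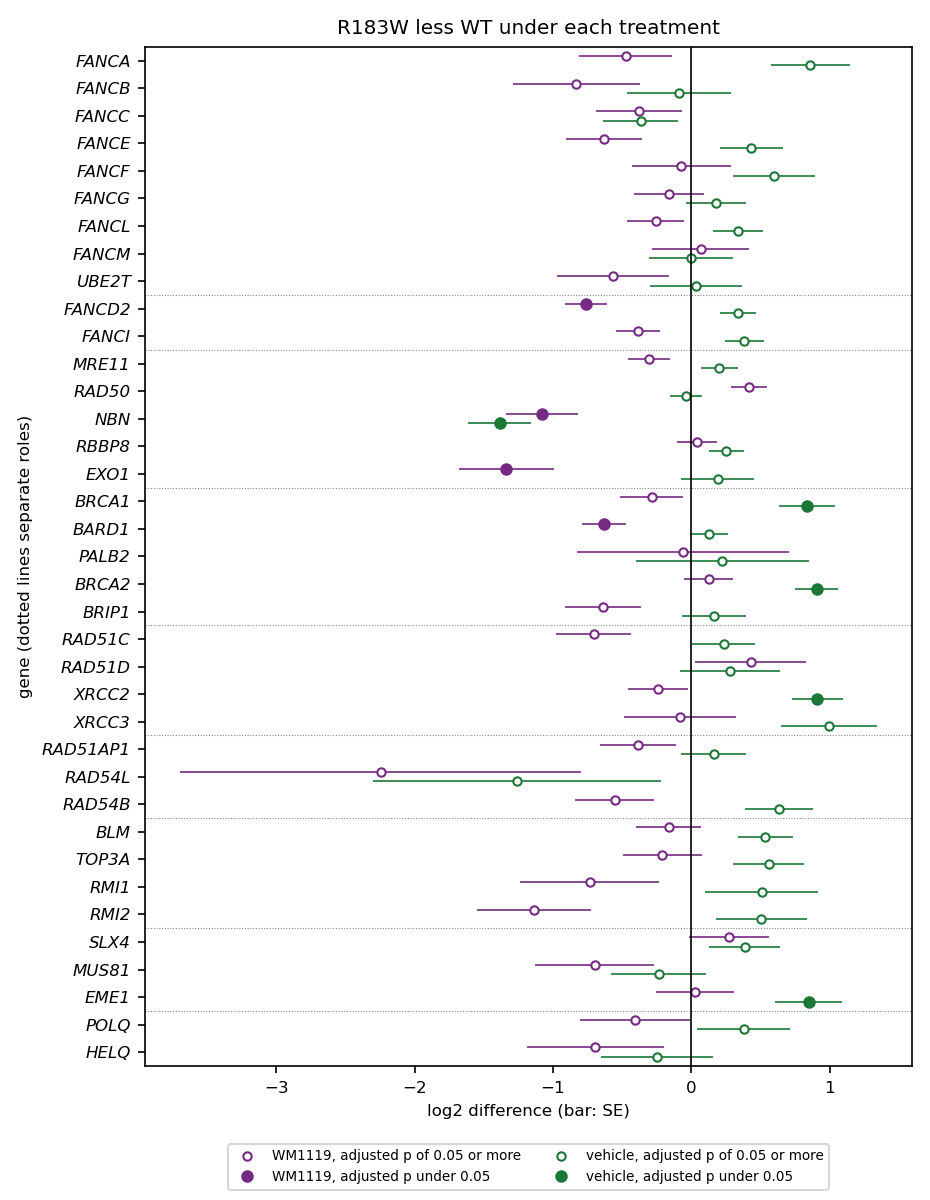
Log2 difference of R183W less WT (x axis) for each repair gene (y axis) under WM1119 and under vehicle; points are estimates, bars are SE and filled points have an adjusted p under 0.05. Only NBN is filled under both treatments, at -1.08 and -1.39.

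FANCD2 (ENSG00000144554, chromosome 3), the substrate whose ubiquitination marks the crosslink for repair, was the repair gene whose interaction passed the test. It stood at 91.7 and 72.5 CPM in R183W WM1119 libraries, at 124, 116 and 124 CPM in R183W vehicle, at 127, 142 and 149 CPM in WT WM1119 and at 107, 92.1 and 90.1 CPM in WT vehicle libraries. The WM1119 libraries were the lowest in R183W cells and the highest in WT cells, with no overlap with vehicle in either line. FANCD2 rose with WM1119 in WT cells (log2 change 0.54, SE 0.13, adjusted p = 0.0354), and its value in R183W cells was -0.56 (SE 0.15, adjusted p = 0.0508), which passed without WT WM1119 library 3 (adjusted p = 0.0106), as did its difference between the lines under vehicle, 0.34 (SE 0.13, adjusted p = 0.115 with that library and 0.0437 without it). The interaction was -1.10 (SE 0.20, adjusted p = 0.0361), and under WM1119 FANCD2 was lower in R183W than in WT cells (-0.76, SE 0.15, adjusted p = 0.0071). Omission of R183W vehicle library 2 (adjusted p = 0.0601) or 3 (0.0589), of WT vehicle library 2 (0.136) or 3 (0.142), or of library 2 of WT WM1119 (0.110) ended the call in WT cells, and omission of R183W WM1119 library 2 (0.129) ended that under WM1119. The interaction was still called when library 1 of either WT group or library 3 of WT WM1119 (0.0073) was omitted. Omitting any other library gave adjusted p-values of 0.0854 to 0.317. FANCD2 overlaps the exons of FANCD2OS on the opposite strand and has a pseudogene, and no source used here gives the strand setting of the counting, so some of its counts may belong to them.

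FANCI, the partner of FANCD2 in the ubiquitinated pair, passed no adjusted test with all libraries. Its levels were 53.5 and 61.6 CPM in R183W WM1119, 68.8, 70.6 and 79.3 CPM in R183W vehicle, 69.6, 68.6 and 88.4 CPM in WT WM1119 and 56.0, 54.7 and 57.2 CPM in WT vehicle libraries. WM1119 and vehicle did not overlap in either line, and the interaction was -0.77 (SE 0.21, adjusted p = 0.209). R183W against WT under vehicle was 0.38 (SE 0.14, adjusted p = 0.0924), which passed without WT WM1119 library 3 (adjusted p = 0.0254). Exons of FANCI overlap those of POLG on the opposite strand.

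Of the 9 core complex genes, 7 were below 0 with WM1119 in R183W cells and 8 were above 0 in WT cells, and none passed the adjusted test in any comparison with all libraries. At an unadjusted p under 0.05, FANCE was lower in R183W cells, and FANCA and FANCL were higher in WT cells. FANCA, a core complex subunit whose exons overlap those of ZNF276, stood at 13.9 and 7.85 CPM in R183W WM1119, 22.1, 15.8 and 15 CPM in R183W vehicle, 14.7, 11.3 and 20.6 CPM in WT WM1119 and 10.9, 10.7 and 7.72 CPM in WT vehicle libraries. Within each line its WM1119 and vehicle libraries did not overlap, lower with WM1119 in R183W cells and higher in WT cells, and the interaction was -1.33 (SE 0.44, adjusted p = 0.309). Its difference between the lines under vehicle was 0.86 (SE 0.29, adjusted p = 0.0650), which passed without WT WM1119 library 3 (0.0215). FANCE, which bridges the core complex to FANCD2, stood at 12.7 and 9.66 CPM in R183W WM1119, 20.0, 17.5 and 17.2 CPM in R183W vehicle, 20.4, 18.8 and 12.4 CPM in WT WM1119 and 16.3, 11.6 and 12.8 CPM in WT vehicle libraries. Its treatments did not overlap in R183W cells (-0.70, SE 0.27, adjusted p = 0.167) and overlapped in WT cells, and R183W against WT under WM1119 was -0.63 (SE 0.27, adjusted p = 0.180), which passed without WT WM1119 library 3 (0.0348). FANCL, the ubiquitin ligase subunit, stood at 46.8 and 37.8 CPM in R183W WM1119, 47.7, 44.3 and 47.2 CPM in R183W vehicle, 56.4, 58.3 and 35.9 CPM in WT WM1119 and 35.5, 39.1 and 35.9 CPM in WT vehicle libraries. Library 3 of WT WM1119 lay within the WT vehicle range, and without it FANCL rose in WT cells (adjusted p = 0.0168, against 0.163 with it). Among the other 6, FANCB, FANCC, FANCF, FANCG, FANCM and UBE2T, levels ran from 4.37 to 26.6 CPM, and the interaction ran from -0.74 for FANCB to 0.07 for FANCM with SE of 0.33 to 0.59. Of these, UBE2T, the ubiquitin-conjugating enzyme, was lower in R183W than in WT cells under WM1119 without WT WM1119 library 3 (-0.92, adjusted p = 0.0327, against 0.435 with it).

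Of the 5 end resection genes, 4 were below 0 with WM1119 in R183W cells and 3 were above 0 in WT cells. EXO1 (ENSG00000174371, chromosome 1), the exonuclease of long-range resection, stood at 4.8 and 4.83 CPM in R183W WM1119, 12.0, 10.5 and 17.2 CPM in R183W vehicle, 13.0, 12.3 and 11.1 CPM in WT WM1119 and 8.03, 12.6 and 14.1 CPM in WT vehicle libraries. Both R183W WM1119 libraries were below all 9 others, and the other 3 groups overlapped. EXO1 fell with WM1119 in R183W cells (-1.46, SE 0.34, adjusted p = 0.0254), was lower in R183W than in WT cells under WM1119 (-1.34, SE 0.35, adjusted p = 0.0282), and had an interaction of -1.53 (SE 0.43, adjusted p = 0.214). The fall in R183W cells missed the threshold when library 3 of R183W vehicle (adjusted p = 0.104) or library 1 (0.190) or 2 (0.192) of R183W WM1119 was omitted, and in limma-voom (0.0642). The difference under WM1119 did so when library 1 (0.176) or 2 (0.163) of R183W WM1119, or library 1 (0.0636) or 2 (0.0707) of WT WM1119, was omitted, and in limma-voom (0.0670).

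RAD50 (ENSG00000113522, chromosome 5), the ATPase of the MRE11-RAD50-NBN complex that first binds the break, was the only repair gene that fell in WT cells. It stood at 265 CPM in both R183W WM1119 libraries, at 252, 302 and 281 CPM in R183W vehicle, at 209.5, 208 and 177 CPM in WT WM1119 and at 278, 292 and 289 CPM in WT vehicle libraries. The 3 WT WM1119 libraries were below all 8 others. The R183W vehicle range covered the R183W WM1119 and WT vehicle libraries, and R183W WM1119 lay below WT vehicle without overlap. RAD50 fell with WM1119 in WT cells (-0.53, SE 0.12, adjusted p = 0.0209), and its interaction was 0.46 (SE 0.17, adjusted p = 0.409). The fall missed the threshold when library 2 (adjusted p = 0.0896) or 3 (0.0761) of WT vehicle or library 2 of WT WM1119 (0.0543) was omitted. Exons of RAD50 overlap those of another protein-coding gene on the same strand, so its counts may be shared.

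NBN (ENSG00000104320), the subunit that recruits the ATM kinase to the complex, differed between the lines. It stood at 87.6 and 83.1 CPM in R183W WM1119, 83, 96.1 and 75.8 CPM in R183W vehicle, 235, 194 and 107 CPM in WT WM1119 and 191, 213 and 262 CPM in WT vehicle libraries. Every R183W library was below every WT library, and WT WM1119 library 3 was the lowest of the WT libraries. NBN was lower in R183W cells under WM1119 (-1.08, SE 0.26, adjusted p = 0.0205) and under vehicle (-1.39, SE 0.23, adjusted p = 0.00125). Under vehicle the call held in all 17 alternatives, with a highest adjusted p of 0.0124. Under WM1119 it ended when library 1 (0.139) or 2 (0.176) of R183W WM1119, or library 1 (0.0541) or 2 (0.0714) of WT WM1119, was omitted, and omitting the low library 3 of WT WM1119 gave -1.35 (adjusted p = 3.97e-05). With WM1119 against vehicle NBN had a log2 change of 0.01 (SE 0.25) in R183W cells and of -0.30 (SE 0.22) in WT cells, neither past the threshold (adjusted p = 0.993 and 0.463). MRE11, the nuclease of the same complex, stood at 101 and 86.4 CPM in R183W WM1119, 103, 117 and 115 CPM in R183W vehicle, 125, 110.2 and 113 CPM in WT WM1119 and 111, 90.5 and 89.4 CPM in WT vehicle libraries. Its WM1119 libraries were below vehicle in R183W cells and overlapped with it in WT cells, and the interaction was -0.51 (SE 0.20, adjusted p = 0.436). It overlaps exons of ANKRD49 on the opposite strand and passed no adjusted test. RBBP8, also called CtIP, which starts resection, stood at 171 to 234 CPM over all libraries and passed no adjusted test.

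**Figure D4:**
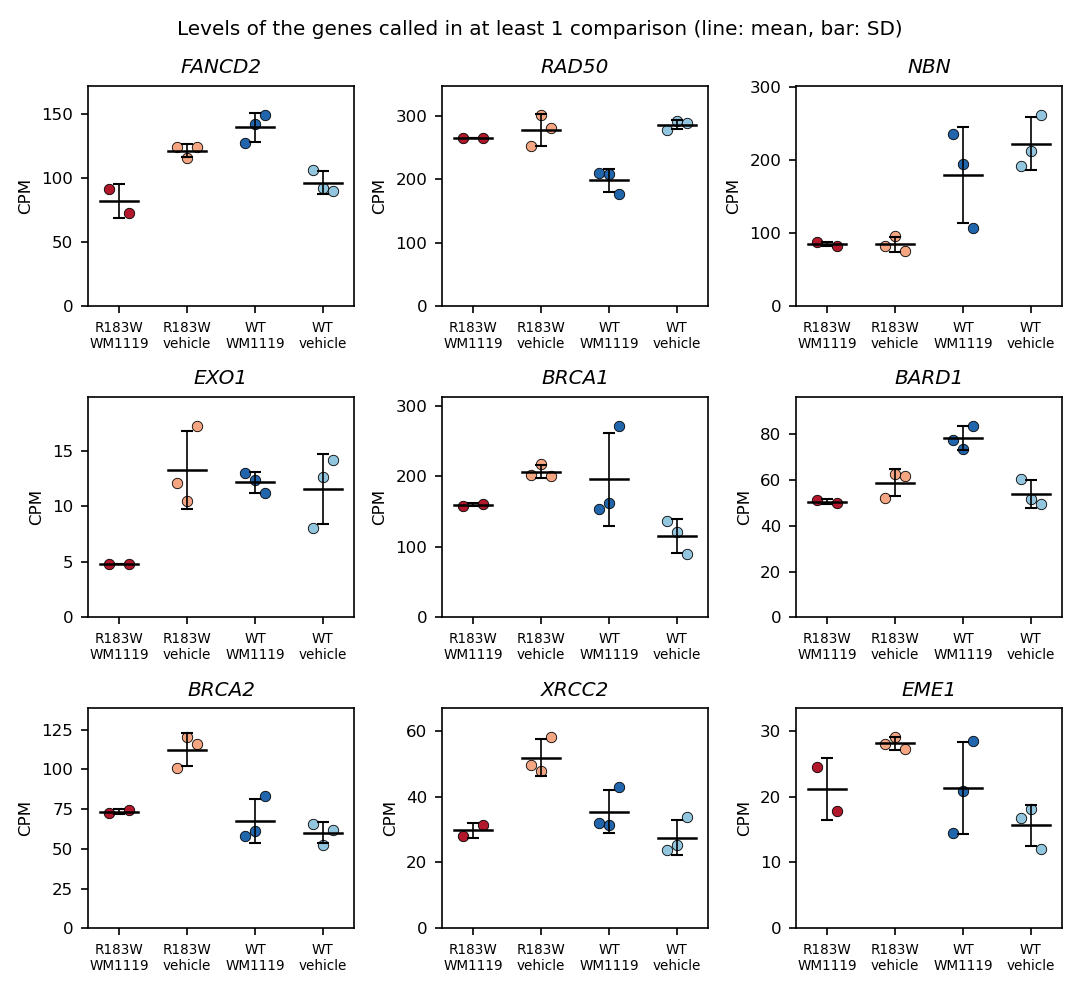
CPM (y axis, from 0) of the repair genes called in at least 1 comparison, by group (x axis); points are libraries, lines are group means and bars are SD. NBN separates R183W from WT libraries, EXO1 is lowest in R183W WM1119 and RAD50 is lowest in WT WM1119 libraries.

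In the BRCA1-PALB2-BRCA2 axis the estimates of all 5 genes were below 0 with WM1119 in R183W cells and 4 of 5 were above 0 in WT cells. Those of PALB2, below 0 in both lines, rest on few counts. BRCA1 (ENSG00000012048, chromosome 17), which with BARD1 forms the ubiquitin ligase that commits breaks to recombination, stood at 158 and 161 CPM in R183W WM1119, 201, 218 and 201 CPM in R183W vehicle, 154, 162 and 272 CPM in WT WM1119 and 137, 121 and 89.2 CPM in WT vehicle libraries. All WT vehicle libraries were below the 8 others, and WT WM1119 library 3 was the highest of all. BRCA1 was higher in R183W than in WT cells under vehicle (0.84, SE 0.20, adjusted p = 0.0158), a call missed without R183W vehicle library 2 (0.0602) or WT vehicle library 3 (0.0776). With WM1119 its value in WT cells was 0.75 (SE 0.20, adjusted p = 0.0509), in R183W cells -0.37 (SE 0.23, adjusted p = 0.397), and the interaction was -1.12 (SE 0.31, adjusted p = 0.200). Exons of BRCA1 overlap those of a long noncoding RNA gene on the same strand, so its counts may be shared.

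BARD1 (ENSG00000138376, chromosome 2) stood at 51.4 and 49.8 CPM in R183W WM1119, 52.3, 62.7 and 61.8 CPM in R183W vehicle, 77.8, 73.7 and 83.8 CPM in WT WM1119 and 60.7, 51.6 and 49.5 CPM in WT vehicle libraries. The WT WM1119 libraries were above all 8 others, and the interaction was -0.76 (SE 0.21, adjusted p = 0.209). BARD1 rose with WM1119 in WT cells (0.54, SE 0.14, adjusted p = 0.0412) and was lower in R183W than in WT cells under WM1119 (-0.63, SE 0.16, adjusted p = 0.0255). The rise was near the threshold: it missed it in 8 of 11 omissions, and was still called only when library 1 of R183W vehicle, of WT vehicle or of WT WM1119 was omitted; the other adjusted p-values ran from 0.0507 (WT WM1119 library 3 omitted) to 0.160 (WT vehicle library 3 omitted). The difference under WM1119 missed it without R183W WM1119 library 1 (0.145) or 2 (0.183).

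BRCA2 (ENSG00000139618, chromosome 13), the mediator that BRCA1 and PALB2 bring to the resected end, stood at 72.2 and 74.3 CPM in R183W WM1119, 101, 120.5 and 116 CPM in R183W vehicle, 58.2, 61.4 and 83.4 CPM in WT WM1119 and 65.4, 52.6 and 61.9 CPM in WT vehicle libraries. R183W vehicle libraries were above all 8 others, and the other 3 groups overlapped in part. Under vehicle BRCA2 was higher in R183W than in WT cells (0.91, SE 0.16, adjusted p = 0.0018), a call that held in all 17 alternatives with a highest adjusted p of 0.0132. In R183W cells its value with WM1119 was -0.62 (SE 0.18, adjusted p = 0.0648, and 0.00646 without WT WM1119 library 3), in WT cells 0.17 (SE 0.16, adjusted p = 0.589), and the interaction was -0.78 (SE 0.24, adjusted p = 0.253). PALB2, the bridge between BRCA1 and BRCA2, stood at 0 to 6.15 CPM and had no counts in WT WM1119 library 3, too few for a statement on direction. BRIP1, a helicase partner of BRCA1, stood at 8.46 to 17.5 CPM with an interaction of -0.80 (SE 0.36, adjusted p = 0.515).

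Among the filament mediators, which help repair filaments form on single-stranded DNA, XRCC2 (ENSG00000196584, chromosome 7) stood at 28.1 and 31.4 CPM in R183W WM1119, 49.5, 47.7 and 58.2 CPM in R183W vehicle, 32.1, 31.3 and 42.9 CPM in WT WM1119 and 23.7, 25.3 and 33.7 CPM in WT vehicle libraries. As for BRCA2, the R183W vehicle libraries were above all 8 others. XRCC2 fell with WM1119 in R183W cells (-0.80, SE 0.21, adjusted p = 0.0470) and was higher in R183W than in WT cells under vehicle (0.91, SE 0.18, adjusted p = 0.00537). The vehicle call held in all 17 alternatives, with a highest adjusted p of 0.0305. The fall with WM1119 missed the threshold in 7 of 11 omissions: R183W vehicle library 1 (0.0698), 2 (0.0958) or 3 (0.166), R183W WM1119 library 1 (0.287) or 2 (0.203), WT vehicle library 2 (0.0579) and WT WM1119 library 2 (0.0501). The interaction was -1.15 (SE 0.28, adjusted p = 0.151). RAD51C stood at 35.5 and 28.1 CPM in R183W WM1119, 47.4, 60.6 and 49.5 CPM in R183W vehicle, 64.4, 56.0 and 34.3 CPM in WT WM1119 and 33.2, 45.2 and 55.1 CPM in WT vehicle libraries. Its treatments were apart in R183W cells (-0.72, SE 0.27, adjusted p = 0.157) and overlapped in WT cells. The interaction of RAD51C was -0.94 (SE 0.36, adjusted p = 0.406). Without WT WM1119 library 3 RAD51C fell with WM1119 in R183W cells (adjusted p = 0.0301) and was lower in R183W than in WT cells under WM1119 (0.00793, against 0.130 with that library).

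XRCC3, which works with RAD51C, stood at 13.2 and 18.1 CPM in R183W WM1119, 26.9, 22 and 22.3 CPM in R183W vehicle, 9.88, 12.3 and 29.3 CPM in WT WM1119 and 16.3, 11.4 and 8.28 CPM in WT vehicle libraries. WT WM1119 library 3 was the highest of all and the other libraries of its group lay within the WT vehicle range. R183W against WT under vehicle was 0.99 (SE 0.35, adjusted p = 0.0781), which passed without WT WM1119 library 3 (0.00558). XRCC3 had an interaction of -1.08 (SE 0.54, adjusted p = 0.589) and overlaps exons of KLC1, and RAD51D, at 3.43 to 7.55 CPM, had one of 0.15 (SE 0.54).

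The estimates of the strand exchange cofactors were all below 0 with WM1119 in R183W cells and above 0 in WT cells, and none passed an adjusted test. Those of RAD54L rest on too few counts for a statement on direction. RAD54B, a motor protein of the strand exchange step, stood at 11.5 and 11.2 CPM in R183W WM1119, 11.4, 17.1 and 18.2 CPM in R183W vehicle, 12.7, 19.8 and 17.8 CPM in WT WM1119 and 10.7, 10.3 and 9.03 CPM in WT vehicle libraries. Its WT treatments did not overlap, higher with WM1119 (0.74, SE 0.25, adjusted p = 0.110), and the interaction was -1.19 (SE 0.38, adjusted p = 0.283). Exons of RAD54B overlap those of the protein-coding gene FSBP on the same strand, so its counts may be shared. RAD51AP1, which stimulates strand exchange, stood at 14.9 and 20.5 CPM in R183W WM1119, 21.6, 21.8 and 26.8 CPM in R183W vehicle, 28.6, 24.1 and 15.3 CPM in WT WM1119 and 20.5, 17.5 and 24.7 CPM in WT vehicle libraries. It was lower with WM1119 in R183W cells without overlap, its WT libraries overlapped, and it had an interaction of -0.55 (SE 0.36, adjusted p = 0.702). RAD54L, a related motor, was near the floor, with 0.48 and 0 CPM in R183W WM1119 and 2.86, 0.771 and 0 CPM in WT WM1119 libraries, and it stood at 0.191 to 2.63 CPM in vehicle libraries. At this depth no difference was detectable (interaction -0.99, SE 1.83).

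Junction dissolution is the work of the BLM helicase with TOP3A, RMI1 and RMI2, which undo double Holliday junctions without a crossover. RMI2 stood at 11.5 and 9.06 CPM in R183W WM1119, 21.1, 32.7 and 28.4 CPM in R183W vehicle, 31.8, 24.4 and 10.3 CPM in WT WM1119 and 12.3, 21.9 and 23.3 CPM in WT vehicle libraries. WT WM1119 library 3 was below both other libraries of its group and at the level of R183W WM1119. With it, RMI2 had -1.40 in R183W cells (SE 0.41, adjusted p = 0.0698) and an interaction of -1.64 (SE 0.53, adjusted p = 0.291); without it, the gene fell in R183W cells (adjusted p = 0.00549) the interaction was -1.97 (adjusted p = 0.0182), and RMI2 was lower in R183W than in WT cells under WM1119 (adjusted p = 0.00421, against 0.110 with it). TOP3A, the topoisomerase, was the gene with the largest estimate in WT cells, 0.95 (SE 0.26, adjusted p = 0.0527), from 22.8, 20.8 and 40.9 CPM in WT WM1119 and 11.8, 15.2 and 15.8 CPM in WT vehicle libraries. The same library 3 supplied the highest of these values, and in R183W cells TOP3A stood at 25.7 and 22.0 CPM with WM1119, against 21.0, 25.0 and 17.4 CPM with vehicle (interaction -0.77, SE 0.39, adjusted p = 0.591). R183W against WT under vehicle was 0.56 (SE 0.26, adjusted p = 0.176), which passed without WT WM1119 library 3 (0.0459). BLM stood at 24.5 and 17.2 CPM in R183W WM1119, 31.8, 25.9 and 35.5 CPM in R183W vehicle, 23.3, 22.6 and 24.8 CPM in WT WM1119 and 17, 24 and 23.3 CPM in WT vehicle libraries. It was lower with WM1119 in R183W cells without overlap (-0.57, SE 0.23, adjusted p = 0.189), its WT libraries overlapped, and the interaction was -0.70 (SE 0.31, adjusted p = 0.504). RMI1, at 3.84 to 13 CPM, had an interaction of -1.24 (SE 0.65, adjusted p = 0.607).

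Of the nucleases, EME1 (ENSG00000154920, chromosome 17), the partner of MUS81 in cutting branched molecules, stood at 24.5 and 17.8 CPM in R183W WM1119, 28, 29.1 and 27.2 CPM in R183W vehicle, 14.5, 20.8 and 28.5 CPM in WT WM1119 and 16.7, 18.1 and 12.0 CPM in WT vehicle libraries. R183W vehicle libraries were above all WT vehicle libraries, while the WM1119 libraries of both lines overlapped. Under vehicle EME1 was higher in R183W than in WT cells (0.85, SE 0.24, adjusted p = 0.0348), a call missed without any 1 of the vehicle libraries: 0.0923, 0.102 and 0.0801 without R183W vehicle library 1, 2 and 3, and 0.0527, 0.0551 and 0.146 without WT vehicle library 1, 2 and 3. Its interaction was -0.82 (SE 0.37, adjusted p = 0.520), and it overlaps exons of LRRC59 on the opposite strand. SLX4, the scaffold that holds these nucleases, stood at 15.4 and 15.7 CPM in R183W WM1119, 15.2, 13.1 and 11.8 CPM in R183W vehicle, 10.3, 17.7 and 10.3 CPM in WT WM1119 and 10.3, 8.58 and 11.9 CPM in WT vehicle libraries. It was slightly higher with WM1119 in R183W cells without overlap (0.22, SE 0.28, adjusted p = 0.725), and its interaction was -0.11 (SE 0.38, adjusted p = 0.969). MUS81, the catalytic subunit, stood at 7.44 and 6.64 CPM in R183W WM1119, 10.9, 14.3 and 13.2 CPM in R183W vehicle, 17.8, 7.96 and 7.84 CPM in WT WM1119 and 11.4, 11.1 and 22.6 CPM in WT vehicle libraries. Its R183W WM1119 libraries were below all 9 others, with -0.85 in R183W cells (SE 0.42, adjusted p = 0.285) and an interaction of -0.46 (SE 0.55, adjusted p = 0.869), and its exons overlap those of CFL1 and EFEMP2.

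POLQ, the polymerase of microhomology-mediated end joining, stood at 5.52 and 5.44 CPM in R183W WM1119, 6.93, 7.06 and 7.71 CPM in R183W vehicle, 10.3, 6.42 and 4.54 CPM in WT WM1119 and 6.69, 6.1 and 3.95 CPM in WT vehicle libraries. HELQ, a helicase that acts beside RAD51C and XRCC2, stood at 2.64 and 3.62 CPM in R183W WM1119, 3.96, 4.28 and 4.06 CPM in R183W vehicle, 7.91, 3.85 and 2.89 CPM in WT WM1119 and 3.35, 5.72 and 5.46 CPM in WT vehicle libraries. Both were lower with WM1119 in R183W cells without overlap and overlapped in WT cells, and neither passed an adjusted test. Their interactions were -0.78 (POLQ, SE 0.52, adjusted p = 0.701) and -0.45 (HELQ, SE 0.64, adjusted p = 0.900).

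The genes whose promoter windows hold the E2F letters were set beside those without. With WM1119 in WT cells all 19 genes with the letters were above 0 (median 0.41), against 10 of the 14 without (median 0.06). In R183W cells 16 of 19 with the letters were below 0 (median -0.41), against 12 of 14 without (median -0.52). The interaction was below 0 for 18 of 19 (median -0.80) and for 12 of 14 (median -0.48). Over all 1834 tested genes with the letters, 53.8% were below 0 in R183W cells (median -0.04) and 52.2% were above 0 in WT cells (median 0.03). Their interaction was below 0 for 56.9% (median -0.07). Over the 8288 tested genes with a window and no letters, these shares were 50.1%, 48.2% and 49.7%. FANCD2, XRCC2 and BARD1, printed above, belong to the genes with the letters, and RAD50, EXO1 and BRCA2 to those without.

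Other repair genes and S phase genes were read from the same fit. Of 43 further genes of homologous recombination and the Fanconi pathway, 2 fell with WM1119 in R183W cells, RFWD3 and RPA3 (4.65%, against 2.65% of all genes). In WT cells 2 rose, CENPX and FAAP100 (4.65%, against 2.33% of all genes). The medians were -0.27 in R183W and 0.10 in WT cells. CENPX, a partner of FANCM, averaged 81.4 ± 0.624 CPM in R183W WM1119, 105 ± 9.78 in R183W vehicle, 79.4 ± 6.81 in WT WM1119 and 46.3 ± 4.46 in WT vehicle libraries, with an interaction of -1.15 (SE 0.20, adjusted p = 0.0295). Under vehicle 5 of the 43 were higher in R183W than in WT cells (11.6%, against 6.82% of all genes), among them CENPX (1.18, SE 0.13, adjusted p = 6.56e-05). Under WM1119 RPA3 and MMS22L were lower (4.65%, against 3.92% of all genes). Of 16 damage checkpoint genes, 1 fell with WM1119 in R183W cells (6.25%, against 2.65% of all genes). It was CLSPN, an adaptor of the kinase CHK1 (-0.86, SE 0.17, adjusted p = 0.0127), and its interaction was -1.36 (SE 0.23, adjusted p = 0.0252). No gene of 14 in non-homologous end joining was called with WM1119 in either line, with medians of 0.05 in R183W and 0.13 in WT cells. At an unadjusted p under 0.05, 1 was higher and 1 lower in R183W cells (7.14% each, against 9.61% and 9.98% of all genes). In WT cells 4 were higher (28.6%, against 11.4%) and 3 lower (21.4%, against 9.94%). Of 16 genes of base excision and mismatch repair, 1 rose with WM1119 in R183W cells (6.25%, against 1.99% of all genes). In WT cells 3 rose (18.8%, against 2.33% of all genes), UNG and LIG1 among these 3. The medians were -0.03 in R183W and 0.10 in WT cells.

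Of 19 S phase genes, 4 fell with WM1119 in R183W cells, MCM3, CDC6, MCM7 and E2F1 (21.1%, against 2.65% of all genes). In WT cells 8 rose (42.1%, against 2.33% of all genes), MCM3, CDC6, MCM7 and E2F1 among them. The medians were -0.73 in R183W and 0.76 in WT cells. The interaction was below 0 for all 19 (median -1.33), where 50.8% of all genes were below 0. It was called for MCM3, CDC6, MCM7 and E2F1 (21.1%, against 0.193% of all genes), replication licensing factors and the transcription factor E2F1. MCM7, a subunit of the replicative helicase, had the smallest interaction p of the list (-1.67, SE 0.24, adjusted p = 0.0148). By library, the median centred log2 CPM of the S phase list was -0.21 and -0.26 in R183W WM1119, 0.40, 0.32 and 0.36 in R183W vehicle, 0.21, 0.38 and 0.21 in WT WM1119 and -0.38, -0.49 and -0.36 in WT vehicle libraries. For the 37 repair genes the same medians were -0.17 and -0.20 in R183W WM1119, 0.14, 0.24 and 0.24 in R183W vehicle, 0.29, 0.18 and 0.07 in WT WM1119 and -0.16, -0.19 and -0.09 in WT vehicle libraries. Both lists were above 0 in every R183W vehicle and WT WM1119 library and below 0 in every R183W WM1119 and WT vehicle library. The part of S phase gene expression in the values of the repair genes was not tested.

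**Figure D5:**
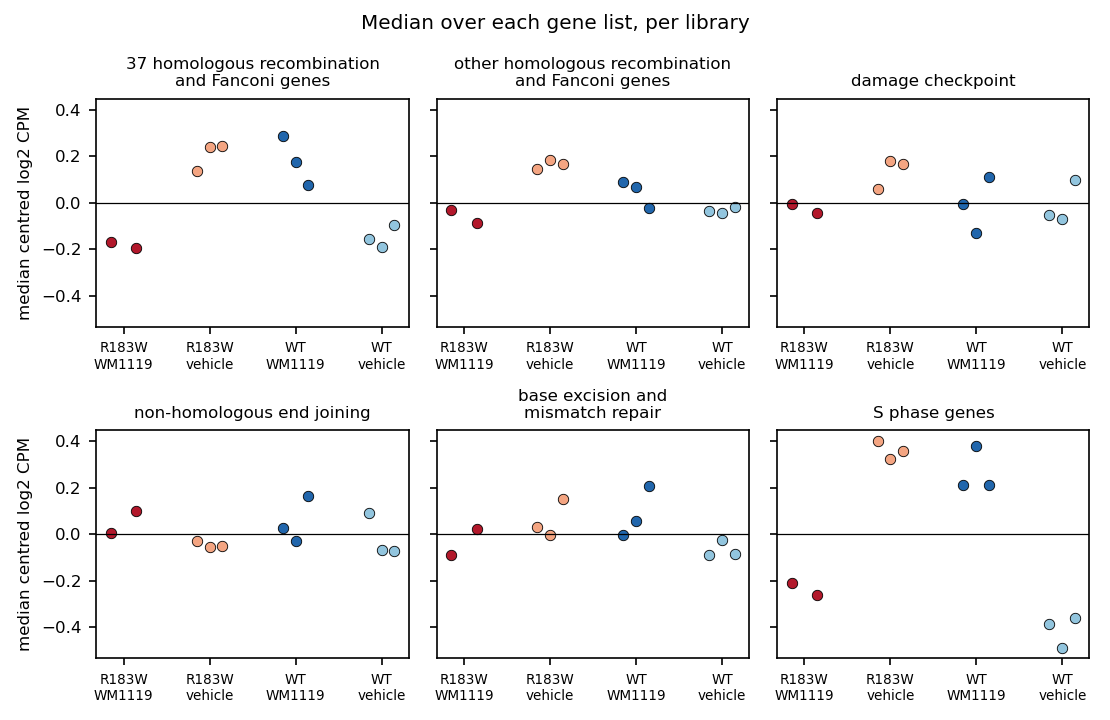
Median over each gene list of log2 CPM, less the mean of the 4 group means (y axis), in each library by group (x axis). The 37 repair genes and the S phase genes share the sign in every group, and the S phase medians reach 0.40 and -0.49, against 0.29 and -0.20 for the repair genes.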

How the data were processed

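The authors deposited expected counts (estimated counts of reads) for each gene in 11 libraries. Per the submitters' processing notes, STAR, RSEM and the hg19 build were used; versions, annotation and strand setting are not given in the sources used here. Per the labels' protocols, DNase-treated RNA went into a ScriptSeq Complete Gold kit, and the molecule field reads polyA RNA. Values were whole or were rounded to whole counts. Gene IDs were matched by ID to GENCODE release 29 names (51959 of 57736; the rest hold 1.01% of counts), and coordinates are RefSeq's, used only for promoters.

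Genes were kept by filterByExpr (13980 genes), scaled by TMM and fitted in edgeR 4.0.16 (R 4.3.3) with 4 group means over all 11 libraries and no replicate block, giving a biological coefficient of variation of 19.6%. Quasi-likelihood F tests were two-sided, with Benjamini-Hochberg adjustment over all genes tested and a threshold of 0.05; SE is that of the log2 change. Alternatives were DESeq2 size factors, DESeq2 1.42.0, limma-voom 3.58.1, no filter, only the groups compared, a replicate block and each library left out. The repair genes and the gene lists were chosen with earlier results of these data known, so no test is given over a list. Every repair gene may be named; values per library are given for genes called in any comparison and for the 3 smallest interaction p-values of each role. Floors cover counting error only. Values of some genes of the comparison lists are not reported here. The fit was checked on simulated counts.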

Additional observations from a re-analysis of the deposited data

Results flagged for a closer look

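The effect of WM1119 on FANCD2 differed between the lines: the interaction, the change in R183W minus that in WT cells, was -1.10 (log2, SE 0.20, edgeR adjusted p = 0.0361). The change was -0.56 in R183W cells, where both WM1119 libraries lay below all 3 vehicle libraries, and 0.54 in WT cells, where all 3 WM1119 libraries lay above the 3 vehicle libraries. Over the 11 omissions of 1 library the interaction ran from -1.30 to -0.94, and its adjusted p was over 0.05 in 8 of them.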

How the results depend on the processing

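All 5 medians kept their sign and moved by less than 0.124 in every alternative run. That value is the pooled SD between replicates of the repair genes' median log2(CPM + 1), a level per library and not a difference between groups. Without 1 library the medians with WM1119 ran from -0.49 to -0.38 in R183W cells and from 0.21 to 0.31 in WT cells. R183W against WT ran from -0.45 to -0.29 under WM1119 and from 0.27 to 0.33 under vehicle. The interaction median ran from -0.82 to -0.70. Counts of called genes were less stable, and the cause was not tested. With WM1119 in R183W cells, the 2 genes called lower became 5 with DESeq2, 6 with no filter, 9 of 36 tested with only the groups compared, 0 with a replicate block (7 at an unadjusted p under 0.05) and 0 to 6 without 1 library; of all genes, 4.64% were called in the fit reported, 6.97%, 4.74%, 18.2% and 1.87% in the first 4 of these, and 0.803% to 11.5% without 1 library. In WT cells, the 2 called higher became 4 with DESeq2, 0 with only the groups compared (6 unadjusted), 0 with the replicate block (8 unadjusted) and 0 to 5 without 1 library, and the 1 called lower became 0 with only the groups compared and with the block (1 unadjusted in each) and 0 to 1 without 1 library; of all genes 4.86% were called, 7.98% with DESeq2, 1.09% with only the groups compared and 2.05% with the block. Under WM1119, the 4 called lower in R183W cells became 0 with only the groups compared (6 unadjusted), 2 with the replicate block and 0 to 8 without 1 library, and DESeq2 called 1 higher where the fit reported called 0; of all genes 8.56% were called, 2.49% with only the groups compared, 4.85% with the block and 10.8% with DESeq2. Under vehicle, the 4 called higher became 7 with only the groups compared (22.4% of all genes called, against 13%), 3 with the replicate block (8.51%), without EME1 (adjusted p = 0.0821), and 2 to 9 without 1 library, while 1 was called lower throughout. For the interaction, the 1 called lower became 3 with DESeq2, 4 with no filter, 0 with the replicate block (14 unadjusted) and 0 to 2 without 1 library; of all genes 0.286% were called, 1.21% with DESeq2, 0.816% with no filter and 0 genes with the block. Only the groups compared gives no interaction.

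Among called genes, fitting only the groups compared gave adjusted p-values of 0.133 (FANCD2), 0.103 (RAD50) and 0.154 (BARD1) with WM1119 in WT cells, and of 0.0798 (FANCD2), 0.123 (NBN), 0.104 (EXO1) and 0.120 (BARD1) between the lines under WM1119. Deviations from the group mean correlated at -0.391 to 0.137 between libraries of the same replicate number and at -0.163 to 0.405 between other numbers. Of the 11 libraries, 2 correlated best with their own number. Such deviations sum to 0 within each small group, so these values cannot show whether the libraries were paired. With the replicate block EXO1 in R183W cells had an adjusted p of 0.0877 and under WM1119 of 0.0724, BARD1 under WM1119 of 0.0838 and the FANCD2 interaction of 0.167. No called value changed sign in any alternative. Depth limits PALB2 and RAD54L, where some libraries hold no counts.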
